A study of Mus musculus with 6 samples.

Results

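The nuclear factor I (NFI) genes Nfia, Nfib, Nfic and Nfix were followed CpG by CpG in the dentate gyrus, a subregion of the hippocampus, of mice housed in standard cages (STD) or with environmental enrichment (ENR), a larger space with objects to explore and more companions. All CpG sites from 1 kb before the start of each GENCODE M21 gene record to its end were taken, without regard to their methylation. They numbered 959 of the 890041 sites measured by reduced representation bisulfite sequencing (RRBS), an assay that samples CpG-rich restriction fragments. A site here is a cytosine of a CpG on one strand, and its value is the percentage of covering reads in which it was methylated. All 6 animals were female C57BL/6JRj mice aged 4.5 months, with 3 libraries (1 mouse each) per housing group, and no genetic change or other agent separated the groups. Per the study, the housing began at 6 weeks of age and lasted 3 months. Each library held a mixture of the cell types of the dissected tissue, so a change in the methylation of one cell type and a change in its share cannot be told apart. The assay holds no RNA, and the tissue label was therefore not checked against marker expression.

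NFI proteins are transcription factors with a conserved DNA-binding domain that bind as dimers to a palindromic DNA site. Nfia, Nfib and Nfix are known for their part in the development of the hippocampus and cortex, where they act in the passage of neural progenitors to differentiation and in the making of glia. Nfix has also been tied to adult hippocampal neurogenesis, and Nfic is best known for the growth of tooth roots. Methylation of CpGs at a gene start is generally associated with silencing, whereas transcribed gene bodies are often methylated.

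The 4 genes are large and were sampled in patches (GRCm38 coordinates throughout). Nfia lies on the plus strand at chr4:97772734-98118874 and held 157 sites, 99 of them within 1 kb of one of its annotated transcript starts. Nfib lies on the minus strand at chr4:82290173-82705750 with 282 sites, 157 of them near a start. Nfic, on the minus strand at chr10:81396186-81455635, is the shortest at 59.5 kb and held 218 sites, 157 near a start. Nfix, on the minus strand at chr8:84699876-84800344, held 302 sites, of which 81 were near a start. The other 465 sites are called the rest of the gene. Sites were shared with other annotated genes in 3 of these regions. In Nfia, 40 sites also lay in another gene, with E130114P18Rik at its start. In Nfib 52 sites did so, among them sites in Gm11266 and Gm11269, and in Nfix 26 did so, among them sites in G430095P16Rik and in Lyl1, which encodes a basic helix-loop-helix transcription factor.

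The densest covered stretch of 120 bases near a start that contains no annotated UTR is shown for each gene, since CpG-rich stretches of this kind hold most of the covered sites of Nfia, Nfib and Nfic. Sequences are from the GRCm38 reference, written 5′ to 3′ on the strand of the gene, and capitals mark the CpGs with a value. The Nfia stretch lies at chr4:97778562-97778681, that of Nfib at chr4:82506580-82506699, that of Nfic at chr10:81431008-81431127 and that of Nfix at chr8:84800556-84800675.
Nfia: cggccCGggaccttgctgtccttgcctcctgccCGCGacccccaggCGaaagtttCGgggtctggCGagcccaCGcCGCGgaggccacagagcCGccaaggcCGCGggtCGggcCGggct
Nfib: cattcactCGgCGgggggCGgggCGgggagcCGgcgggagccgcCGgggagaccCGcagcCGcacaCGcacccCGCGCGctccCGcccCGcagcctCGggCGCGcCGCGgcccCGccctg
Nfic: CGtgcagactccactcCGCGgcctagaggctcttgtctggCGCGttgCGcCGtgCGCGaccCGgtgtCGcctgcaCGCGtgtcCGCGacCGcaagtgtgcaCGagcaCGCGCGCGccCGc
Nfix: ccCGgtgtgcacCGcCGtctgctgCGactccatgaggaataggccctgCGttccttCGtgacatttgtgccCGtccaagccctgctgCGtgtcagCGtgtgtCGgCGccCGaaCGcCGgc
In these stretches 17 to 31 sites had a mean of 0.859% in Nfia, 0.830% in Nfib, 1.13% in Nfic and 1.37% in Nfix over the 6 mice. No site in them had a mean above 13.2%.

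**Figure D1:**
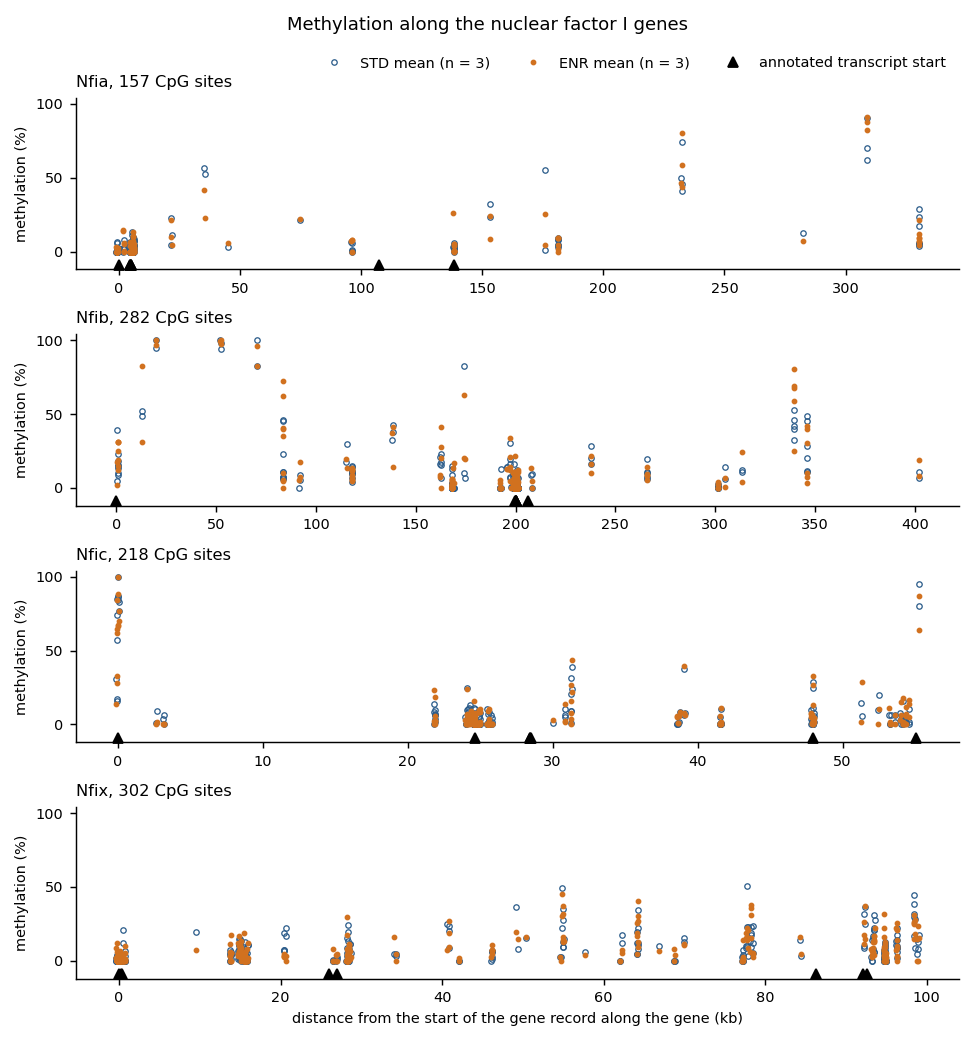
Methylation (%) of every covered CpG site along each gene against the distance from the start of the gene record (kb). Open blue circles are the mean of 3 STD mice, orange dots the mean of 3 ENR mice and black triangles the annotated transcript starts. Most points lie near 0, the highest points are in introns of Nfib and at the first start of Nfic, and no Nfix site has a mean over 80%.

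Low methylation was the common state of the family, at its starts and away from them. Of the 959 sites, 862 (89.9%) had a mean over the 6 mice under 20%, 84 (8.76%) lay between 20% and 80%, and 13 (1.36%) were over 80%. Of all 890041 sites, 70.0% were under 20% and 15.5% were over 80%. Sites over 80% numbered 7 in Nfib, 4 in Nfic, 2 in Nfia and 0 in Nfix.

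Near the starts the mean over sites and mice was 1.21% ± 0.305 in Nfia, 2.37% ± 0.411 in Nfib, 8.38% ± 0.555 in Nfic and 4.57% ± 1.13 in Nfix (SD over 6 mice). The median of 10197 other protein-coding genes with at least 20 such sites was 1.77%. Nfia stood below it, with 20.5% of the genes lower. Nfib, Nfix and Nfic stood above it, with 63.1%, 78.9% and 87.9% of the genes lower. All Nfia sites near a start were under 20%.

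Single starts within a gene differed. In Nfic the start of the gene record at position 81455635 had 12 covered sites within 1 kb, with means of 66.9%, 69.4% and 63.1% in the STD mice and 61.6%, 63.0% and 63.9% in the ENR mice. The start at 81431005, 24.6 kb further along, had 108 sites between 1.48% and 2.07% in the 6 mice. The first Nfic start was thus methylated in every mouse and the second was not. The Nfic starts at 81407641 and 81400554 had means of 5.64% (21 sites) and 14.5% (16 sites).

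The stretch around the first Nfic start, chr10:81455546-81455731, is shown because methylation changed sharply within it. Capitals mark the 11 covered CpGs.
Nfic first start: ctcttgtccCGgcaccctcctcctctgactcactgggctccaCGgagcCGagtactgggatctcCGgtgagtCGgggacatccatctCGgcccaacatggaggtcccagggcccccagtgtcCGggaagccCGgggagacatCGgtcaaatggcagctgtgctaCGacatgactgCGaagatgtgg
Downstream of the start, in the coding exon, 5 sites had means from 76.2% to 100%, and the site 46 bp into the gene (81455589) was at 100% in all 6 mice. Upstream, the sites 8, 23, 31 and 32 bp before the start had means from 60.9% to 84.4%, and those 47, 53 and 86 bp before it from 22.4% to 24.4%. This stretch had a CpG observed to expected ratio of 0.588, against 1.37 in the unmethylated Nfic stretch shown above.

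In Nfib the start of the gene record at 82705750 was also the most methylated of its starts with covered sites, though less uniform. Its 9 sites averaged 22.3%, 13.5% and 13.7% in STD and 19.8%, 9.66% and 32.2% in ENR, and the groups overlapped. The group of starts about 200 kb further along, from 82505308 to 82505779, averaged between 1.38% and 1.45% over 108 to 135 sites. In Nfix the first 3 starts shared 55 sites with a mean of 1.47%, and the starts near its end at 84708218 and 84707716 had means of 21.9% (5 sites) and 14.7% (19 sites). The Nfia starts with covered sites had means from 0.830% to 3.85%.

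Runs of at least 5 neighbouring sites that were all under 20%, with no gap over 2 kb, took up 131 sites of Nfia, 209 of Nfib, 192 of Nfic and 241 of Nfix. The longest was the 3772 bp at the main Nfib starts (chr4:82504515-82508286), where 156 sites averaged 1.55%. The main Nfia starts lay in 1818 bp (chr4:97777359-97779176) with 84 sites at 1.38%, and the second Nfic start in 1713 bp (chr10:81429812-81431524) with 109 sites at 1.63%. No run of 5 or more neighbouring sites over 80% was found in any of the 4 genes.

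Nfix had the most such runs, 11, of which 8 held no site near one of its starts. Some of these 8 overlapped other genes. The runs at chr8:84701279-84701838 and chr8:84704078-84705695 held sites that also lie in Lyl1. The latter held 34 sites, 29 of them in the 3′ UTR of Nfix. The run at chr8:84722618-84723181 held sites that also lie in G430095P16Rik. An intronic run at chr8:84784346-84786642, 9977 bp from the nearest Nfix start at its closest, held 62 sites with a mean of 4.79%. Its means in the single mice were 5.41%, 5.19% and 3.66% in STD and 5.97%, 3.84% and 4.65% in ENR. A run at chr8:84771678-84773897 held 28 coding-exon sites among its 36 sites and averaged 4.19%. Across Nfix, 29 coding-exon sites averaged 4.84% and 48 sites in the 3′ UTR averaged 8.71%, while 176 intronic sites averaged 9.22%.

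Away from the starts all 4 genes were below the median gene. The rest of the gene averaged 15.8% ± 1.82 in Nfia (58 sites), 18.1% ± 2.12 in Nfib (125), 6.60% ± 1.05 in Nfic (61) and 8.47% ± 1.14 in Nfix (221; SD over 6 mice). Among 2761 other protein-coding genes with at least 20 such sites the median was 36.4% and the quartiles were 15.5% and 56.2%. Between 14.4% of these genes (for Nfic) and 28.3% (for Nfib) were lower than the NFI gene. Within each mouse the gene was lower than the median gene of that mouse, by 20.3 ± 1.89 points in Nfia, 18.1 ± 1.90 in Nfib, 29.5 ± 3.13 in Nfic and 27.7 ± 2.21 in Nfix (SD, n = 6). The difference had the same direction in 6 of 6 mice for each gene (two-sided exact sign-flip permutation test over mice, p = 0.031, which is the smallest that 6 mice allow, with the same value after Benjamini-Hochberg adjustment over the 4 genes). This comparison was added after seeing the data. The test measures consistency over mice and cannot tell whether the NFI genes are unusual among genes.

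Part of the rest of each gene is itself CpG-rich. Island-like sites were those with at least 50% GC and a CpG observed/expected ratio of 0.6 or more in the sequence from 100 bp before to 100 bp after them. Without island-like sites the means were 20.02% in Nfia, 23.7% in Nfib, 7.48% in Nfic and 11.1% in Nfix, while the median of 1895 other genes was 45.4%. Then 10.5%, 14.2%, 2.43% and 3.91% of the genes were lower. Of the 240 such NFI sites that were over 1 kb from the starts of every annotated gene, 77.1% were under 20% and 3.75% over 80%. Among 124428 sites of this kind in protein-coding genes, these shares were 29.7% and 32.7%. Over the island-like sites of the rest, between 35.8% (for Nfib) and 59.2% (for Nfix) of 906 other genes were lower than the NFI gene.

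**Figure D2:**
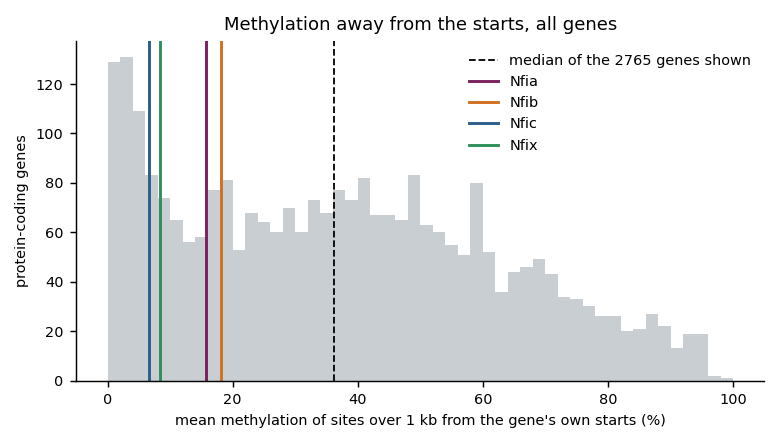
Number of protein-coding genes (y axis) by the mean methylation (%) of their sites over 1 kb from their own starts (x axis), for genes with at least 20 such sites. The coloured lines mark the NFI genes, from Nfic at 6.60% to Nfib at 18.1%, all left of the dashed median.

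The rest of the gene was more methylated than the starts in Nfia by 14.6 ± 1.81 points, in Nfib by 15.7 ± 2.23 and in Nfix by 3.89 ± 2.07 (SD, n = 6 mice, higher in 6 of 6 mice, exact sign-flip permutation test, p = 0.031, adjusted p = 0.0417 over the 4 genes). In Nfic the difference was -1.77 ± 1.27 points, negative in 5 of 6 mice (exact permutation p = 0.0625). With a window of 500 bp around the starts it was -5.73 points in Nfic, negative in 6 of 6 mice (exact permutation adjusted p = 0.031), and 7.11 in Nfia. With a window of 2 kb it was -0.435 points in Nfic, negative in 4 of 6 mice (exact permutation p = 0.5), and 18.96 in Nfia. Counting only the first start of each gene record, it was -60.0 points in Nfic (exact permutation adjusted p = 0.0417), -9.51 in Nfib, 6.63 in Nfia and 7.27 in Nfix. With medians over sites in place of means, the differences in Nfia and Nfib kept their direction in 6 of 6 mice and none passed (lowest exact permutation adjusted p = 0.0625). In Nfix 3 of the 6 mice then showed a difference above 0 and the others a difference of 0.

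Averaged over all sites, Nfib was the highest of the 4 genes at 9.33% ± 0.922, followed by Nfic at 7.88% ± 0.453, Nfix at 7.42% ± 0.668 and Nfia at 6.60% ± 0.719 (SD over 6 mice). Nfic and Nfix, neighbours in this order, differed by 0.460 ± 0.588 points (exact sign-flip permutation test over mice, p = 0.125). Each of the other pairs differed in the same direction in 6 of 6 mice (exact permutation p = 0.031, adjusted p = 0.0375 over 6 pairs). With medians over sites in place of means no pair passed, the difference being 0 between Nfia, Nfib and Nfic and -0.397 for each of them minus Nfix. The value of -0.397 came from 2 of 6 mice (lowest -2.11), the others being at 0. With the strands of a CpG averaged, Nfia minus Nfix (-0.464) and Nfib minus Nfic (0.914) no longer passed (exact permutation adjusted p = 0.0625 for both). Nfic minus Nfix then passed, at 1.26 points in 6 of 6 mice (exact permutation adjusted p = 0.0469). It also passed with means of 1 kb tiles, at 3.14 points (exact permutation adjusted p = 0.031). Nfib also stood above the other 3 genes with the sites near starts left out (by 2.26, 11.5 and 9.60 points over Nfia, Nfic and Nfix). The order of the others changed. With the sites near starts left out, Nfia stood 9.20 points above Nfic and 7.34 above Nfix, and Nfic stood below Nfix by 1.86 points (exact permutation adjusted p = 0.031 for each). Without the sites that also lie in other genes, no pair passed after adjustment (lowest exact permutation adjusted p = 0.0625). Nfib then stood 1.39 points above Nfic and 2.36 above Nfix, each in 6 of 6 mice (unadjusted exact permutation p = 0.031), and Nfia stood 0.467 points above Nfic and 1.43 above Nfix.

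The few methylated sites of the family were mostly intronic. In Nfib, 7 sites about 20, 52 and 70 kb from the first start had means from 82.4% to 99.8%. A pair of neighbouring ones, at chr4:82653570-82653614, is shown because these are the most methylated sites of Nfib and no other annotated gene overlaps them.
Nfib intron: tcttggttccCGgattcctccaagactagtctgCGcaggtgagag
The pair averaged 99.8%, 96.9% and 100% in the STD mice and 99.5%, 100% and 100% in the ENR mice. In Nfia, 3 intronic sites about 309 kb from the first start had means of 89.0%, 80.4% and 72.1%, and the site 98081519 read from 63.6% to 100% in single mice. The patches of Nfia and Nfib that were methylated thus lay away from their starts, while 3 of the 4 Nfic sites over 80% lay at its first start.

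The comparison of housing groups asked whether ENR shifted methylation of these genes. Gene means were close. Nfia averaged 7.16%, 7.07% and 6.40% in the STD mice and 6.84%, 6.91% and 5.24% in the ENR mice. Nfib averaged 9.40%, 9.03% and 8.33% in STD and 10.5%, 10.3% and 8.40% in ENR. The groups overlapped in both genes, since ENR1 lay above STD3 in Nfia and ENR3 lay below STD1 in Nfib.

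Nfic averaged 8.50%, 8.29% and 7.47% in STD and 8.02%, 7.56% and 7.46% in ENR. Nfix averaged 7.41%, 8.05% and 6.85% in STD and 7.77%, 8.03% and 6.42% in ENR. Groups overlapped in these genes as well. ENR minus STD was -0.546 points in Nfia (two-sided exact permutation test over 20 regroupings, p = 0.5), 0.814 in Nfib (exact p = 0.3), -0.407 in Nfic (exact p = 0.3) and -0.0309 in Nfix (exact p = 0.9). With 3 against 3 mice this test cannot give a p below 0.1. None of the 4 gene means had groups that did not overlap. The share over 15362 protein-coding genes was 8.19%, and 4 genes are too few to tell a difference from it. ENR3 had the lowest mean over all sites of the table, 21.3% against 22.5% to 24.3% in the other libraries, and it was also the lowest library in Nfia, Nfic (by less than 0.01 points) and Nfix. Without ENR3 the difference was -0.000286 in Nfia, 1.48 in Nfib (exact permutation p = 0.1, the smallest that 3 against 2 mice allow), -0.296 in Nfic and 0.464 in Nfix. With each library centred on its own mean, the difference was -0.044 in Nfia, 1.316 in Nfib (exact permutation p = 0.1, the smallest this test can give), 0.0951 in Nfic and 0.471 in Nfix, so the direction turned in Nfic and Nfix and the Nfib difference was larger. At sites with a mean of 20% to 80%, ENR minus STD was 7.27 points in Nfib (exact permutation p = 0.1), -5.04 in Nfia, -3.36 in Nfic and -1.29 in Nfix (exact permutation p from 0.4 to 0.9). These were 28 sites in Nfib, 13 in Nfia, 18 in Nfic and 25 in Nfix. The 28 Nfib sites included its 6 sites with a difference over 25 points, all higher in ENR. Groups overlapped at all but 1 of those 6.

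**Figure D3:**
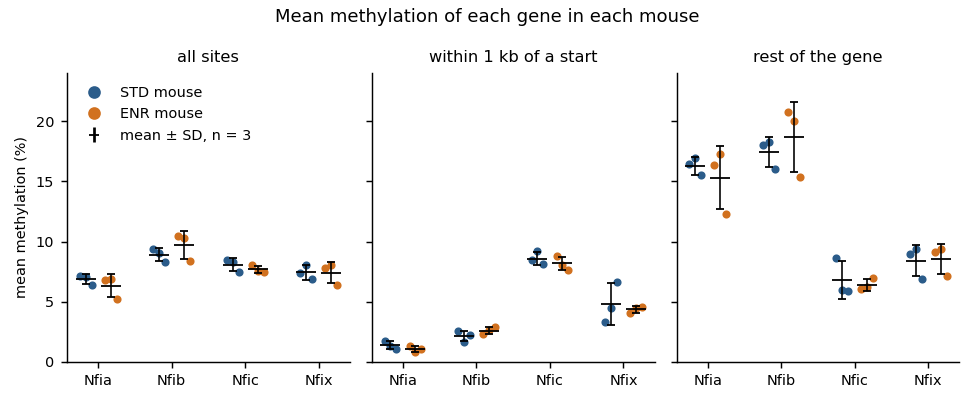
Mean methylation (%) of each gene in each mouse, over all sites, over sites within 1 kb of a start and over the rest of the gene. Dots are single mice (blue STD, orange ENR) and black lines the mean ± SD of 3 mice. The groups overlap in every panel, and ENR3 is the lowest dot for the rest of Nfia and Nfib.

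Site by site, no CpG of the family was called. With limma fitted to all 615152 sites that varied between libraries, 0 of 680 varying NFI sites had an adjusted p under 0.05 with a difference over 25 points (lowest adjusted p 0.852), and 0.0% of all sites were called. At an unadjusted p under 0.05 there were 12 NFI sites (1.76%), against 2.68% of all sites. In 1 kb tiles with at least 3 sites, limma called 0 of 72 NFI tiles and 0.0% of all tiles, and 3 of the 72 had an unadjusted p under 0.05, against 3.98% of all tiles. The groups did not overlap in 5 of the 72 tiles (6.94%), against 8.86% of all tiles.

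Differences of group means over 25 points, counted without a test, occurred at 11 sites (1.15%), against 1.94% of all sites. They comprised 8 higher in ENR (6 in Nfib and 2 in Nfix, against 0.706% of all sites in this direction) and 3 lower in ENR (2 in Nfia and 1 in Nfix, against 1.23%). Nfic had 0, and 0 lay near a start. With 1 library left out the count rose to 18 without STD2, 17 without ENR1, 17 without ENR2 and 21 without ENR3 (1.77% to 2.19%), while the share of all sites rose to 2.74%, 3.42%, 3.08% and 2.60% under the same omissions. Since most NFI sites are too close to 0% to differ by so much, the count was also taken among sites with a mean of 12.5% to 87.5%, where it was 11 of 155 (7.10%) against 9.01%. At 28 of the 959 NFI sites (2.92%) the groups did not overlap, against 3.99% of all sites. A difference over 25 points without overlap occurred at 2 of the 959 sites, against 7209 of all 890041 sites (0.81%). Among sites without overlap these were 2 of 28, against 7209 of 35517.

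**Figure D4:**
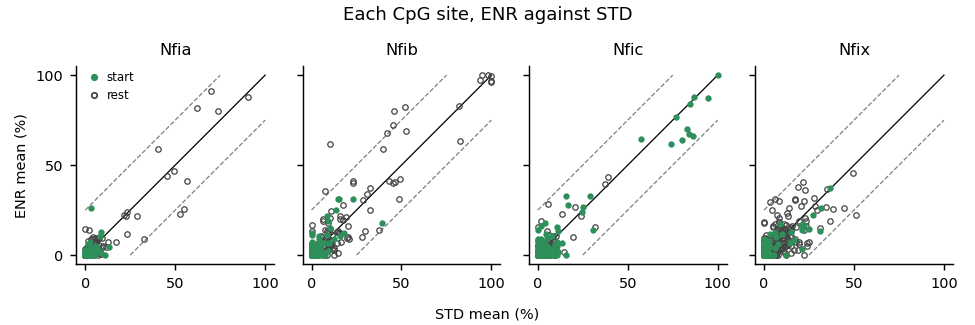
ENR mean (%) against STD mean (%) of each CpG site, n = 3 mice per group, with sites within 1 kb of a start in green and other sites as open circles. The solid line marks equal means and the dashed lines a difference of 25 points, beyond which lie 2 Nfia, 6 Nfib, 0 Nfic and 3 Nfix sites.

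For each gene the site with the largest difference whose groups did not overlap is given. In Nfib the intronic site at 82622283 read 23.1%, 0% and 0% in STD and 38.7%, 40% and 27.5% in ENR, a difference of 27.7 points (limma adjusted p = 0.852). In Nfix the intronic site at 84722587 read 55.9%, 46.9% and 50% in STD and 12.5%, 18.8% and 36.4% in ENR, a difference of -28.4 points (limma adjusted p = 0.852). Its 6 neighbours within 100 bp differed by 2.48 points on average and 2 of them had the same sign. All STD mice stood above all ENR mice at this Nfix site, and the reverse held at the Nfib site.

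In Nfia the intronic site at 97925977 read 46.2%, 15.4% and 35.7% in STD and 0%, 11.8% and 14.3% in ENR, a difference of -23.7 points (limma adjusted p = 0.852), and its 1 neighbour within 100 bp differed by 1.07 points. In Nfic the site 35 bp into the coding exon of the methylated first start, 81455600, read 84.1%, 85.7% and 88.5% in STD and 72.7%, 70.0% and 56.3% in ENR, a difference of -19.8 points (limma adjusted p = 0.852). Its 10 neighbours within 100 bp differed by -17.2 to 17.4 points, with a mean of -0.711, and 5 of them had the same sign. The Nfia and Nfix sites lie in the middle of these reference stretches, chr4:97925963-97925991 and chr8:84722573-84722601, shown on the strand of the gene with the CpG in capitals.
Nfia site: tagaaatatgcacCGgtaccctgacattt
Nfix site: ctcacacctaggaCGgggcaagtgaggtg
The largest difference of the family was at the Nfib site 82622277, 6 bp from the Nfib site above, where the STD mice read 24.3%, 7.14% and 0% and the ENR mice 100%, 73.3% and 12.5%. The difference was 51.5 points, and the groups overlapped because ENR3 lay below STD1. The 5 covered CpGs around it, at chr4:82622236-82622317, are shown since they hold 3 of the 6 Nfib sites over 25 points.
Nfib patch: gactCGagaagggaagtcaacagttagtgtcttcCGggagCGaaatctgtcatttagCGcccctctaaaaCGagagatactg
All 3 are on the minus strand. The 4 covered minus-strand sites from 82622247 to 82622283 were higher in ENR by 16.96 to 51.5 points, while the plus-strand cytosine of the CpG at 82622283, site 82622282, read 12.7%, 15.0% and 5.05% in STD and 6.90%, 1.52% and 8.11% in ENR. The group difference thus had opposite signs on the strands of this CpG, and the cause was not tested. Across the 140 NFI CpGs with both strands covered, the means over 6 mice agreed within 5 points at 116 (82.9%).

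The 9 sites within 1 kb of site 82622277 averaged 20.7%, 22.6% and 11.3% in STD and 47.2%, 29.7% and 13.4% in ENR. Of these 9 sites 5 were higher and 4 lower in ENR, and their mean differed by 11.9 points (exact permutation p = 0.4). A second Nfib patch of 5 intronic sites, chr4:82366111-82366262, averaged 53.4%, 30.8% and 43.5% in STD and 36.6%, 71.8% and 72.1% in ENR, a difference of 17.6 points (exact permutation p = 0.3). In both patches 1 ENR mouse read among the STD mice.

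**Figure D5:**
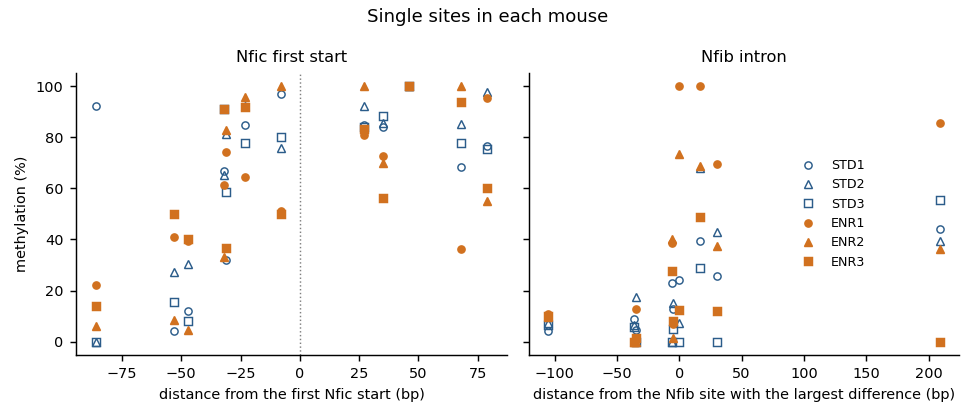
Methylation (%) of single sites in each mouse, open blue symbols for STD and filled orange for ENR, against the distance (bp, in the direction of transcription) from the first Nfic start (left) and from the Nfib site with the largest difference (right). In Nfic, sites from 32 bp before the start onward average 60.9% or more and those further upstream at most 24.4%. In Nfib, ENR1 reads 100% at the central site and ENR3 12.5%.

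Sites of intermediate level varied between mice in these genes about as much as elsewhere. Over the 84 NFI sites between 20% and 80% the median SD over 6 mice was 17.4 points, and over all such sites of the table it was 17.9. The tile with the lowest limma p of the family was in Nfic, chr10:81429001-81430000, beside the second start, whose 4 sites averaged 3.29% in STD and 0% in ENR (limma adjusted p = 1). The lowest in Nfia, chr4:97910001-97911000, averaged 2.57% in STD and 5.50% in ENR (limma adjusted p = 1). That of Nfib, chr4:82504001-82505000 beside its main starts, averaged 1.01% in STD and 2.13% in ENR, and that of Nfix, chr8:84731001-84732000, averaged 0% in STD and 3.92% in ENR (limma adjusted p = 1 for both).

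Genes whose means were most like each NFI gene over the 6 libraries, among 11746 with at least 20 sites, were Gart and Jade1 for Nfia (mean absolute difference 0.199 and 0.210 points), Dtwd2 and Spen for Nfib (0.307 and 0.407), Sfmbt1 and Ddx54 for Nfic (0.176 and 0.215), and Rufy3 and Sez6 for Nfix (0.210 and 0.236). Such levels were common, since 285 to 537 genes lay within 1 point of each NFI gene.

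A list of 26 genes linked to NFI factors as upstream regulators, partners or targets was read in the same way, and 24 had at least 5 sites. ENR was higher in 10 and lower in 14, with a median difference of -0.182 points beside -0.189 over all 15362 protein-coding genes. The groups did not overlap in 2 of the 24 (8.33%, against 8.19% of all genes). They were Slc1a3, an astrocyte glutamate transporter, with 27.9% ± 1.55 in STD and 25.5% ± 1.99 in ENR (SD, n = 3, exact permutation p = 0.1), and Cdh2, which encodes N-cadherin, with 1.48% ± 0.25 in STD and 2.14% ± 0.406 in ENR (SD, n = 3, exact permutation p = 0.1).

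Levels in the list ranged more widely than in the NFI genes. Among upstream regulators the transcription factor gene Zbtb20 was highest at 21.3% and Sox9, a regulator of glial fate, lowest at 2.49%. Among partners Ezh2, a histone methyltransferase of Polycomb, was highest at 4.63% and Olig2, an oligodendrocyte lineage factor, lowest at 1.42%. The astrocyte gene S100b was highest of its group at 96.3% over 5 sites and Apcdd1, a Wnt inhibitor, lowest at 4.52%. Among progenitor and neuronal genes Efnb1, an X-linked ephrin gene, was highest at 36.9% and the Notch target Hes1 lowest at 1.69%.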

How the data were processed

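DNA from micro-dissected dentate gyrus of 3 STD and 3 ENR mice had been made into RRBS libraries and treated with bisulfite. According to the submitters' processing notes, the tools were Trim Galore 0.4.0, cutadapt 1.8.1, Bismark 0.16.1 and methylKit 1.5.2 with the mm10 build. Per the study's methods, 2 further bases were trimmed, and cytosines needed at least 10 reads and were dropped at the highest coverage. The deposited table gives the percent of methylated reads per CpG site and library, made by the authors. It holds 890041 sites with a value in every library. Read numbers are not part of it, so the depth behind a value is unknown beyond the minimum and no interval based on depth is given. A site with few reads weighed as much as a deeply read one.

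Sites were taken per gene from GENCODE M21 records, and all 959 were a CpG in the GRCm38 reference. Sequences were read from that reference. Libraries differed from each other at 469 to 543 of the 959 sites, so none was a copy. Gene values were means over sites in each mouse, compared between groups by two-sided exact permutation of 3 against 3 mice (20 regroupings, smallest p = 0.1), and within mice by exact sign flips (64 patterns). The p-values measure the spread between these mice. Per the study's methods, ENR mice of an experiment lived together in an enclosure and STD mice lived in groups per cage. Which of these mice shared a cage is not given. limma 3.58.1 in R 4.3.3 (lmFit, eBayes with trend) was run on all varying sites and on 72222 varying 1 kb tiles with at least 3 sites, with Benjamini-Hochberg adjustment over all of them. A call needed an adjusted p under 0.05 and a group difference over 25 points. The study tested reads per cytosine, which percentages do not allow. The exact tests were tried on values with known answers, and limma on 1 kb tiles was tried on simulated data. For single sites limma was not tried in this way. All 4 genes are named, with each gene's non-overlapping site of largest difference, every site over 25 points counted, and the tile with the lowest p for those discussed. For likeness, the pair of genes with the smallest mean absolute difference was taken, and for the linked list the non-overlapping genes and the highest and lowest of each role. The genes and lists were chosen with earlier results of these data known. The Nfib patches, single starts and strand values were picked after values were seen. Alternatives covered normalization between libraries, strands, tiles, windows, thresholds, a block for the replicate number and each mouse left out. The labels name no batch.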

Additional observations from a re-analysis of the deposited data

How the results depend on the processing

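limma called 0 NFI sites and 0 tiles under every alternative run (scale, variance model, quantile normalization, tile size, replicate block, each mouse left out). Among ENR minus STD means, the median over sites gave 0 in Nfia, Nfib and Nfic and -0.795 in Nfix, and 1 kb tile means gave -1.35, 1.43, -1.23 and -1.08 in the same order. Nfib was 1.316 with centred libraries, 1.20 with quantile normalization and 7.27 at its 28 sites of 20% to 80% (exact permutation p = 0.1 each). Nfia was -0.044, -0.0677 and -5.04 under these. Nfic turned to 0.0951 with centred libraries and 0.0912 with quantile normalization. Nfix turned to 0.471 and 0.569 under these, to 0.119 without sites near starts and to 0.0658 without sites in other genes. With each mouse left out in turn the ranges were -0.836 to -0.000286 in Nfia, 0.445 to 1.48 in Nfib, -0.716 to -0.198 in Nfic and -0.342 to 0.464 in Nfix. Sites over 25 points numbered 20 at 20 points (2.09%, against 3.74% of all sites), 1 at 40 points (0.104%, against 0.244%) and 24 with group medians (2.503%, against 3.07%), and 12 to 21 with each mouse left out.

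Nothing in the labels says that same-numbered mice belong together, and they were not taken as pairs: their deviations correlated at 0.0552, 0.0319 and 0.125. STD1 and STD3 correlated best with their own number, and STD2 better with ENR1 (0.0410) than with ENR2. With the replicate number as a block, the gene differences were -0.546, 0.814, -0.407 and -0.0309 points (smallest exact permutation p = 0.25) and 0 sites and 0 tiles were called. At an unadjusted p under 0.05 it left 9 of 680 sites (1.324%, against 2.57% of all sites) and 4 of 72 tiles (5.56%, against 4.55% of all tiles).

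Nfib stayed above the other 3 genes except in medians, while the order of the others changed with the sites used. The median over sites gave 0 for Nfia minus Nfib, Nfia minus Nfic and Nfib minus Nfic, and -0.397 for each gene minus Nfix (below 0 in 2 of 6 mice). With strands averaged, Nfia minus Nfix was -0.464, Nfib minus Nfic 0.914 (both no longer past the threshold) and Nfic minus Nfix 1.26 (now past it). With 1 kb tile means, Nfia minus Nfic was 3.58, Nfia minus Nfix 6.72 and Nfic minus Nfix 3.14, and without sites near starts these were 9.20, 7.34 and -1.86. Nfic minus Nfix was past the threshold in both settings, with opposite signs. In the same settings Nfib stood above Nfia by 6.33 and 2.26, above Nfic by 9.90 and 11.5 and above Nfix by 13.0 and 9.60. Without sites in other genes (added after seeing the data), Nfia minus Nfib was -0.926, Nfia minus Nfic 0.467, Nfia minus Nfix 1.43, Nfib minus Nfic 1.39 and Nfib minus Nfix 2.36. The cause was not tested.

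Rest minus starts was -5.73 in Nfic, now past the threshold, and 7.11 in Nfia with a 500 bp window, and -0.435 (exact permutation p = 0.5) and 18.96 with a 2 kb window. With only the first start it was -9.51 in Nfib, -60.0 in Nfic (past the threshold), 6.63 in Nfia and 7.27 in Nfix. With medians over sites it was 5.68 in Nfia, 7.19 in Nfib, 0.521 in Nfic and 2.35 in Nfix. With 5 mice the exact sign-flip permutation test cannot go below p = 0.0625, so leaving a mouse out was read by direction. The ranges were -2.88 to -2.54 for Nfia minus Nfib, -1.40 to -1.09 for Nfia minus Nfic, -0.931 to -0.745 for Nfia minus Nfix, 1.18 to 1.58 for Nfib minus Nfic, 1.74 to 2.09 for Nfib minus Nfix and 0.333 to 0.646 for Nfic minus Nfix. Rest minus starts ranged from 14.2 to 15.3 in Nfia, 15.1 to 16.3 in Nfib, -2.16 to -1.48 in Nfic and 3.54 to 4.62 in Nfix. Rest minus the median gene (added after seeing the data) ranged from -20.9 to -19.9 in Nfia, -18.5 to -17.5 in Nfib, -30.6 to -29.0 in Nfic and -28.4 to -27.2 in Nfix. Without island-like sites the gap was wider, -25.4, -21.7, -38.0 and -34.3.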

Other observations

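The CpG at 82622283 in Nfib was not the only one whose strands differed, since 24 of the 140 NFI CpGs with both strands covered had 6-mouse means more than 5 points apart. In single libraries the mean absolute difference between the strands of a CpG ran from 3.84 to 6.21 points. Over NFI sites with a mean under 20% the median SD over 6 mice was 3.4 points, against 1.63 over all such sites measured.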
